A study of Penicillium oxalicum with 6 samples.

Results

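The region is a stretch of 41 consecutive genes near one end of chromosome III of the mould Penicillium oxalicum, whose mycelium releases enzymes able to break down starch and other plant polysaccharides. Its members are all locus tags from POX_c04715 to POX_c04755, 41 of the 9822 genes in each file. They were chosen because most of them were less abundant in a POX_a00954 mutant than in the strain PoxKu70. The stretch holds a first falling block of 15 genes (POX_c04718 to POX_c04732, block 1), a gap of 11 genes (POX_c04733 to POX_c04743) and a second falling block of 10 genes (POX_c04744 to POX_c04753, block 2). The 3 genes before block 1 and the 2 genes after block 2 are called the left and right flank. A further 31 tags with the same letter follow the region up to the last one in the files.

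RNA was sequenced from mycelium of 2 strains, with 3 libraries each: the POX_a00954 mutant, altered in a transcription factor gene named in the series title, and PoxKu70, whose genotype the labels give as WT. The strain's name is that of Ku70, a DNA end-joining protein, and fungal strains without it are widely used as hosts for gene replacement. The labels do not say whether the mutant carries the same Ku70 background, which part of POX_a00954 was altered, or whether it is 1 clone. Spores of both strains, from plates kept at 28 °C for 4 days and washed off in 0.2% Tween-80, grew for 24 h in glucose medium and then for 24 h on raw starch as sole carbon source. The comparison asks which transcripts of this region depend on the genotype at POX_a00954 under that condition.

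In filamentous fungi, genes that work in one pathway often lie side by side and are switched together, sometimes by a regulator encoded among them and sometimes by a regulator encoded elsewhere. Such clusters are known for secondary metabolites and for the use of particular nutrients, and many of them lie towards chromosome ends, where chromatin state also governs expression. The files and the RefSeq table used here (P. oxalicum HP7-1, ASM172317v3) pair none of the 41 tags with a product, so no function is given to any member. That table holds 40 of them and lacks POX_c04736.

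POX_a00954 itself was at 283, 275 and 441 FPKM in the mutant libraries and at 716, 679 and 842 FPKM in the PoxKu70 libraries, so its transcript was reduced but present. FPKM is the number of fragments per kilobase of transcript, scaled to the mapped total of the library, so levels of different genes can be set side by side. Read numbers are not given by FPKM. The most frequent ratio to mutant replicate 1 among low values gave an estimate of relative depth, from 14 to 38 genes for each other library. With mutant replicate 1 set to 1, it was 1.4 and 1.1 for mutant replicates 2 and 3 and 1.5 to 1.9 for the PoxKu70 libraries. Differences in expression can enter these ratios. The summed FPKM ran from 1338218 to 1409899 in the mutant libraries and from 1025654 to 1076733 in the PoxKu70 libraries. Pairs of libraries correlated at 0.965 to 0.98 within a strain and at 0.75 to 0.808 across strains (Pearson's r of log2(FPKM + 1) over 8448 genes, which are not independent replicates). Nothing states that the libraries of a strain are separate cultures, so their spread may be technical. In such bulk extracts, fewer cells expressing a gene and less RNA per cell cannot be told apart.

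Most of the region was lower in the mutant, but 5 of its 35 tested genes were called higher. Of the 41 members, 35 averaged at least 1 FPKM over the 6 libraries and were tested, 3 were expressed below that level and 3 were listed at 0 in every library. The threshold was an adjusted p of 0.05 (limma, Benjamini-Hochberg over all tested genes). By it, 28 members were lower in the mutant, 5 were higher and 2 did not pass. Over all 8448 genes, 30.0% were called lower and 30.5% higher, a split that became 3912 lower and 1656 higher when all libraries were given equal FPKM sums (TPM scaling). Since the region was picked from these differences, its counts and log2 changes are descriptions and no p is given for a member. By at least 1 log2 unit, 23 members were lower, against 14.1% of all tested genes, and 3 were higher, against 15.5%. Of the 35 tested members, 28 had every mutant library below every PoxKu70 library, as had 33.7% of all tested genes, and 5 had every mutant library above, as had 34.4% of all tested genes. Chromosome III as a whole was even, with 30.4% of the tested genes of its tag letter called lower and 30.4% called higher. How reads of overlapping neighbours, either strand or similar copies were counted could not be examined, since no source used here names the counting method.

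The region contributed 0.351%, 0.3% and 0.28% of the FPKM sum in mutant replicates 1 to 3, against 2.54%, 2.91% and 2.29% in PoxKu70 replicates 1 to 3. Its leading transcripts also changed places. In the mutant the most abundant members were POX_c04740 of the gap, at a mean of 1568 FPKM, and POX_c04754 of the right flank, at 1247 FPKM, which together with POX_c04748 of block 2, at 316 FPKM, stood ahead of all of block 1. In PoxKu70 the 4 most abundant members all belonged to block 1, namely POX_c04726, POX_c04719, POX_c04723 and POX_c04729, at means of 16673, 2773, 1606 and 885 FPKM. Members above 100 FPKM numbered 6 in the mutant and 19 in PoxKu70.

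**Figure D1:**
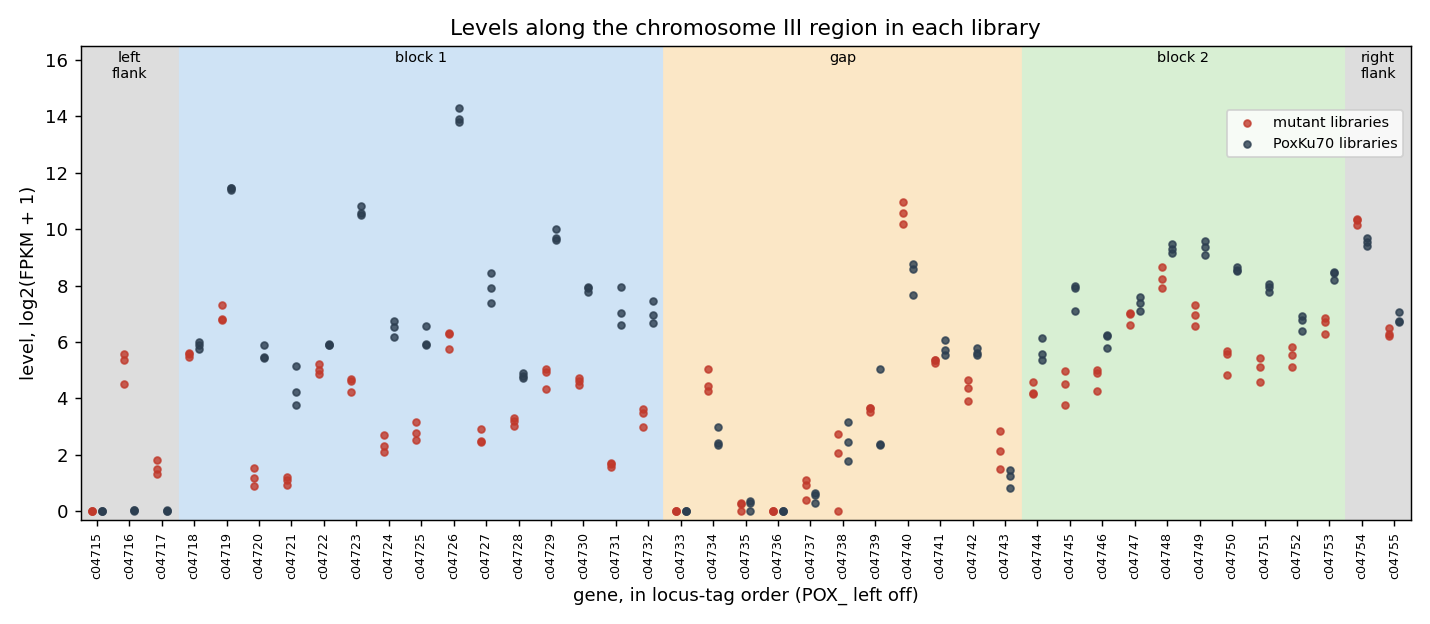
Level of each of the 41 members on the log2(FPKM + 1) scale, in locus-tag order; red points are the 3 mutant libraries and dark points the 3 PoxKu70 libraries, with shading for the flanks, the blocks and the gap. In both blocks the dark points lie above the red ones at every gene, while POX_c04716, POX_c04717, POX_c04734, POX_c04740, POX_c04743 and POX_c04754 show the opposite.

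Block 1 was lower in the mutant at every gene, with means from 1.12 to 126 FPKM, against means from 21.7 to 16673 FPKM in PoxKu70. All 15 genes were called lower, as were 30.0% of all tested genes, and 13 were lower by at least 1 log2 unit, against 14.1%. The median log2 change was -4.11, where the median over all tested genes was -0.0089. Its most abundant gene, POX_c04726, was at 76.7, 53.3 and 78.2 FPKM in the mutant libraries and at 15555, 20184 and 14281 FPKM in the PoxKu70 libraries. The mutant mean of 69.4 ± 14 FPKM was 0.416% of the PoxKu70 mean of 16673 ± 3106 FPKM (SD, n = 3 each). The difference amounted to -7.89 log2 units (SE 0.20). The gene ranked 2386th of all genes in the mutant and was the 2nd most abundant in PoxKu70. POX_c04719 was at 108, 113 and 158 FPKM in the mutant libraries and at 2704, 2792 and 2822 FPKM in the PoxKu70 libraries. It kept 4.55% of its PoxKu70 level (log2 change -4.47, SE 0.16) and was thereby the most abundant block 1 transcript of the mutant. POX_c04723 was at 24.5, 17.9 and 23.6 FPKM in the mutant libraries, against 1539, 1816 and 1463 FPKM in the PoxKu70 libraries, and kept 1.37% (log2 change -6.13, SE 0.16). In each of these genes the gap between the strains was many times the spread within either strain.

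The size of the fall did not simply follow the level within block 1. Of the 15 genes, 11 kept less than 10% of their PoxKu70 mean, a share found in 2.58% of all tested genes. POX_c04731 averaged 2.14 ± 0.165 FPKM in the mutant and 157 ± 77.7 FPKM in PoxKu70 (SD, n = 3 each). It kept 1.36%, close to the 1.37% of POX_c04723, whose PoxKu70 mean was 1606 FPKM. POX_c04720 and POX_c04721 had the lowest mutant means of the tested members, at 1.35 and 1.12 FPKM, against 48.3 and 21.7 FPKM in PoxKu70. Values this low may rest on few reads, whose number FPKM does not give. The added 1 FPKM understates the log2 changes of these genes, -4.40 (SE 0.21) and -3.30 (SE 0.33). No gene of block 1 was listed at 0 in any mutant library.

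The remaining genes of block 1 fell between these extremes. POX_c04729, the 4th most abundant gene of the region in PoxKu70, averaged 26.6 ± 6.65 FPKM in the mutant and 885 ± 128 FPKM in PoxKu70 (SD, n = 3 each), and kept 3.01%. POX_c04730, beside it, averaged 23.4 ± 2.24 FPKM in the mutant and 234 ± 13.8 FPKM in PoxKu70 (SD, n = 3 each). These neighbours thus ended at nearly the same level in the mutant, within the spread of the libraries, although every PoxKu70 library of POX_c04729 lay well above every one of POX_c04730. POX_c04727 averaged 5.19 ± 1.16 FPKM in the mutant and 251 ± 91.7 FPKM in PoxKu70 (SD, n = 3 each), a PoxKu70 level like that of POX_c04730 with a far lower level in the mutant. POX_c04724 and POX_c04725 kept 4.73% and 8.7%, with mutant means of 4.23 and 6.16 FPKM and PoxKu70 means of 89.5 and 70.8 FPKM.

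Some genes inside block 1 stood out from their neighbours; POX_c04722 and POX_c04728 were singled out after their values were seen. POX_c04722 was at 36.0, 28.3 and 31.5 FPKM in the mutant libraries and at 59.1, 59.8 and 59.1 FPKM in the PoxKu70 libraries, so it kept 53.8% between POX_c04721, which kept 5.16%, and POX_c04723, which kept 1.37%. POX_c04728 kept 29.7% between POX_c04727 at 2.07% and POX_c04729 at 3.01%, with 8.11, 7.18 and 8.76 FPKM in the mutant libraries and 26.7, 28.7 and 25.5 FPKM in the PoxKu70 libraries. Both genes were steady within PoxKu70, with SDs of 0.423 FPKM around a mean of 59.3 FPKM and 1.62 FPKM around 27 FPKM. The smaller differences of these genes therefore still exceeded the spread of the libraries.

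The outer genes of block 1 differed from each other. The first gene, POX_c04718, was at 43.2, 46.7 and 47.3 FPKM in the mutant libraries and at 58.6, 53.5 and 62.6 FPKM in the PoxKu70 libraries. It kept 78.6%, its log2 change of -0.34 (SE 0.12) was the smallest of the block, and it is a member of the run only by a narrow margin. It did not pass without PoxKu70 replicate 1 or 3 (log2 changes of -0.33 and -0.29), without mutant replicate 1 or 2 (-0.30 and -0.35), or with replicate number as a block (-0.34). The last gene, POX_c04732, was at 11.4, 10.3 and 6.87 FPKM in the mutant libraries and at 125, 176 and 101 FPKM in the PoxKu70 libraries, and kept 7.12% (log2 change -3.67, SE 0.24). The next gene, POX_c04733, was listed at 0 in all 6 libraries and has no change to compare, and the first tested gene after block 1, POX_c04734, was higher in the mutant.

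**Figure D2:**
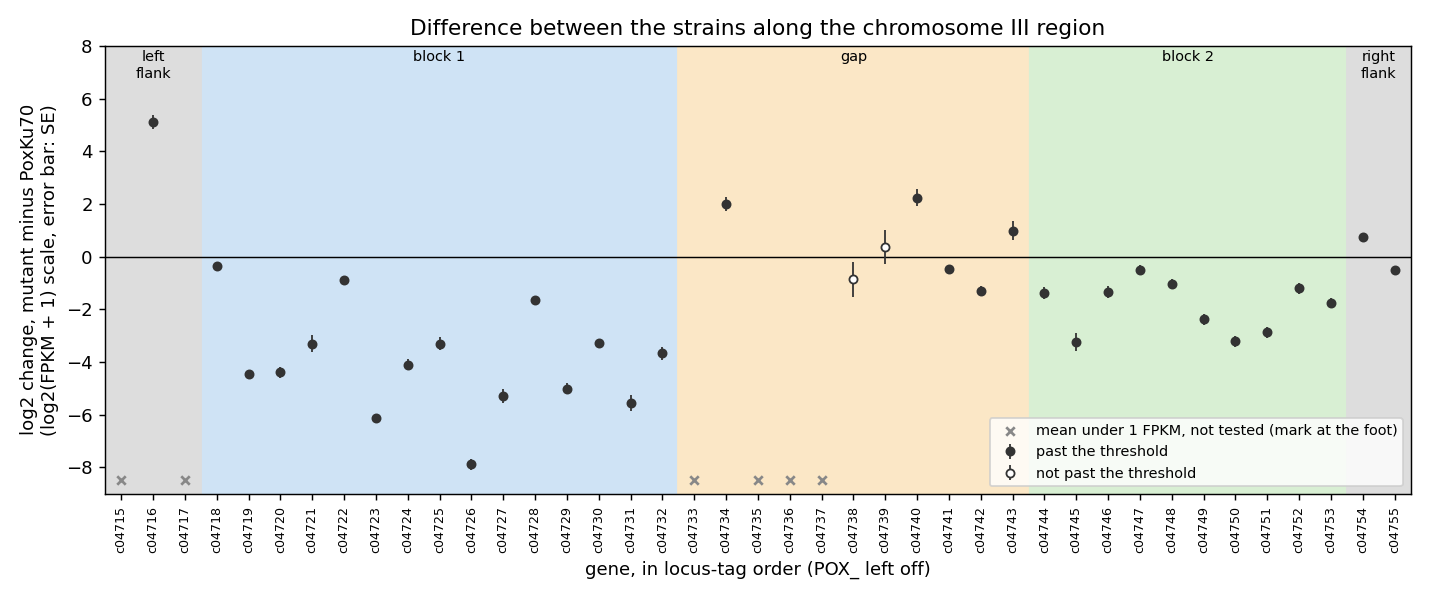
Log2 change of each member, mutant minus PoxKu70, on the log2(FPKM + 1) scale with its SE from limma; open circles did not pass the threshold and crosses at the foot mark genes under a mean of 1 FPKM. Block 1 reaches -7.89 at POX_c04726, block 2 runs from -3.25 to -0.49, and the gap holds changes of both signs.

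The gap held mostly weakly expressed genes around 1 abundant gene that rose. Of its 11 genes, 2 were listed at 0 in all libraries (POX_c04733 and POX_c04736) and 2 averaged under 1 FPKM (POX_c04735 and POX_c04737). POX_c04735 averaged 0.143 FPKM in the mutant and 0.17 FPKM in PoxKu70, and POX_c04737 averaged 0.8 FPKM in the mutant and 0.413 FPKM in PoxKu70, with overlapping libraries in both cases. Of the 7 tested genes, 3 were called higher, 2 lower and 2 did not pass. Over all tested genes 30.5% were called higher and 30.0% lower, so this mix is not particular to the gap. POX_c04740 was at 2011, 1537 and 1158 FPKM in the mutant libraries and at 383, 433 and 204 FPKM in the PoxKu70 libraries. Its mean was 4.61-fold higher in the mutant (log2 change 2.24, SE 0.31), which took it to rank 138 of all genes in the mutant, against rank 507 in PoxKu70. POX_c04734, 2 tags after the end of block 1, was 4.62-fold higher, with 32.0, 20.6 and 18.0 FPKM in the mutant libraries and 6.91, 4.32 and 4.07 FPKM in the PoxKu70 libraries (log2 change 2.00, SE 0.26). Every mutant library exceeded every PoxKu70 library for both genes, although each varied within both strains.

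The genes next to block 2 on the gap side moved in both directions. POX_c04741 was lower in the mutant, at 36.8, 40.4 and 40.0 FPKM, than in PoxKu70, at 45.6, 52.2 and 66.9 FPKM (log2 change -0.46, SE 0.16). Its call was lost without PoxKu70 replicate 2 or 3 (log2 changes of -0.49 and -0.32) and without mutant replicate 1, 2 or 3 (-0.42, -0.49 and -0.48). POX_c04742 was at 14.2, 19.8 and 24.2 FPKM in the mutant libraries and at 45.9, 47.3 and 53.9 FPKM in the PoxKu70 libraries, and kept 39.5% (log2 change -1.32, SE 0.19), a share like those within block 2. POX_c04743, which lies between it and block 2, was at 6.14, 3.41 and 1.82 FPKM in the mutant libraries and at 1.76, 1.37 and 0.75 FPKM in the PoxKu70 libraries (log2 change 0.99, SE 0.36). This low gene is what separates POX_c04741 and POX_c04742 from the second run, and its call was fragile. It was lost without PoxKu70 replicate 1, 2 or 3 (log2 changes of 1.13, 1.02 and 0.80), without mutant replicate 1 or 2 (0.65 and 0.99), under TPM scaling (0.74), under quantile normalization (0.99) and with a pseudocount of 5 (0.46).

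The other tested gap genes did not differ beyond their spread. POX_c04738 was at 0, 5.67 and 3.20 FPKM in the mutant libraries and at 4.49, 7.90 and 2.45 FPKM in the PoxKu70 libraries. POX_c04739, singled out after its values were seen, was even in the mutant, at 11.5, 11.7 and 10.4 FPKM, but in PoxKu70 it was at 4.03, 31.8 and 4.24 FPKM. Its log2 change of 0.36 (SE 0.65) rested on PoxKu70 replicate 2: without that library it was 1.25 and passed, and without PoxKu70 replicate 1 or 3 it was -0.11 and -0.08. PoxKu70 replicate 2 was the highest PoxKu70 library at POX_c04738, POX_c04739 and POX_c04740 alike.

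Block 2 fell less and more evenly than block 1. All 10 genes were called lower, as were 30.0% of all tested genes, and 9 were lower by at least 1 log2 unit, against 14.1%. The median log2 change was -1.57, with a range from -3.25 to -0.49. Of its genes 0 kept less than 10% of the PoxKu70 mean, 9 kept between 10% and 50%, and POX_c04747 kept 71%. The most abundant gene, POX_c04748, was at 302, 238 and 408 FPKM in the mutant libraries and at 716, 622 and 569 FPKM in the PoxKu70 libraries, and kept 49.7% (log2 change -1.04, SE 0.20). POX_c04749 was at 124, 94.0 and 159 FPKM in the mutant libraries and at 656, 763 and 537 FPKM in the PoxKu70 libraries, and kept 19.3% (log2 change -2.38, SE 0.21). These neighbours overlapped in level in PoxKu70, while in the mutant every library of POX_c04749 lay below every library of POX_c04748.

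The deepest differences of block 2 lay at POX_c04745, POX_c04750 and POX_c04751, which kept 10.3%, 10.8% and 13.6%. POX_c04745 averaged 21.6 ± 8.99 FPKM in the mutant and 210 ± 63.2 FPKM in PoxKu70 (SD, n = 3 each; log2 change -3.25, SE 0.34). POX_c04750 averaged 41.1 ± 12 FPKM in the mutant and 380 ± 22.1 FPKM in PoxKu70, and POX_c04751 averaged 33.1 ± 9.64 FPKM in the mutant and 244 ± 23.9 FPKM in PoxKu70 (SD, n = 3 each). POX_c04744, POX_c04746 and POX_c04752 kept 36.4%, 38.8% and 43%. The weakest member was POX_c04747, with a log2 change of -0.49 (SE 0.18). Its call was lost without PoxKu70 replicate 1 or 2 (log2 changes of -0.48 and -0.37), without mutant replicate 1 or 2 (-0.54 and -0.36), with eBayes without trend (-0.49) and with replicate number as a block (-0.49).

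Both borders of block 2 were measurable genes. At its left edge POX_c04744 was at 16.9, 17.2 and 22.7 FPKM in the mutant libraries and at 46.6, 40.2 and 69.2 FPKM in the PoxKu70 libraries (log2 change -1.39, SE 0.22). At its right edge POX_c04753 was at 113, 77.1 and 104 FPKM in the mutant libraries and at 358, 292 and 348 FPKM in the PoxKu70 libraries, and kept 29.5% (log2 change -1.76, SE 0.17). The next gene, POX_c04754 of the right flank, ended the run by being higher in the mutant. It was at 1321, 1286 and 1134 FPKM in the mutant libraries and at 751, 827 and 678 FPKM in the PoxKu70 libraries, 1.66-fold higher (log2 change 0.73, SE 0.14). TPM scaling left it at 0.35, past the threshold, a setting under which the median over all genes was -0.36. Quantile normalization lowered it to 0.26, no longer past the threshold. POX_c04755 was lower again, at 89.9, 72.3 and 76.0 FPKM in the mutant libraries and 107, 133 and 103 FPKM in the PoxKu70 libraries (log2 change -0.52, SE 0.15), but not past the threshold without PoxKu70 replicate 2 (-0.41) or without mutant replicate 2 (-0.45). Beyond it, POX_c04756 and POX_c04757 were listed at 0 in all 6 libraries.

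The left flank held genes that were expressed in the mutant and all but undetected in PoxKu70, directly before block 1. POX_c04716 was at 21.7, 39.8 and 46.5 FPKM in the mutant libraries and at 0.03, 0.03 and 0 FPKM in the PoxKu70 libraries. Its log2 change was 5.11 (SE 0.28) on the log2(FPKM + 1) scale, which understates it, and ranged from 2.98 to 8.17 over the 16 alternatives, the extremes being pseudocounts of 5 and 0.1. POX_c04717 was at 1.51, 1.84 and 2.49 FPKM in the mutant libraries and at 0.03, 0.01 and 0.01 FPKM in the PoxKu70 libraries. Its mean over the 6 libraries fell just short of 1 FPKM, so it was not tested. Without that filter its log2 change was 1.52 and it passed. POX_c04715 and, before it, POX_c04713 were listed at 0 in all 6 libraries, and POX_c04714 averaged 0.52 FPKM in the mutant and 0.277 FPKM in PoxKu70. Tags at 0 or under 1 FPKM thus adjoined the region on both sides.

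Set side by side, the blocks differed in level and in how much of it was kept. Summed over its 15 genes, block 1 was at 391, 335 and 424 FPKM in the mutant libraries and at 21692, 26893 and 20678 FPKM in the PoxKu70 libraries, so that the mutant kept 1.66%. Block 2, over its 10 genes, was at 885, 637 and 1004 FPKM in the mutant libraries and at 3012, 2871 and 2644 FPKM in the PoxKu70 libraries, so that the mutant kept 29.6%. The gap summed to 2113, 1638 and 1257 FPKM in the mutant libraries and to 492, 579 and 337 FPKM in the PoxKu70 libraries, a 3.56-fold higher mean in the mutant. The order of these sums was therefore turned round, in every library: the gap led and block 1 came last in the mutant, while block 1 led and the gap came last in PoxKu70. The gap's lead in the mutant was that of POX_c04740 alone. Without this gene the gap came last in every library of both strains, and only the blocks changed places. The ratio of block 1 to block 2 was 0.441, 0.526 and 0.422 in the mutant libraries and 7.2, 9.37 and 7.82 in the PoxKu70 libraries.

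**Figure D3:**
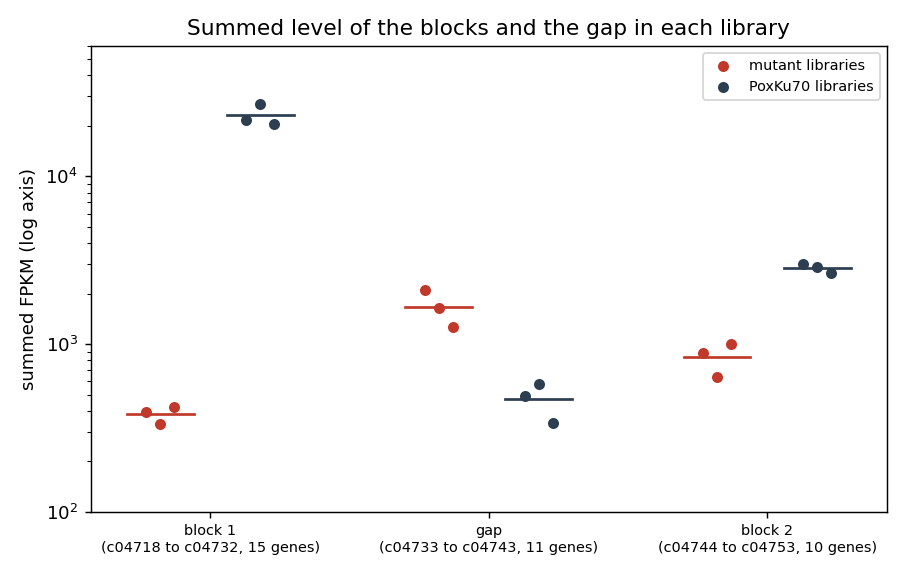
Summed FPKM of block 1, the gap and block 2 in each library on a log axis, mutant in red to the left of PoxKu70 in dark; short lines are means of 3 libraries. The mutant means are 383, 1669 and 842 FPKM and the PoxKu70 means 23088, 469 and 2842 FPKM.

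The sum of block 1 in PoxKu70 and the sum of the gap in both strains each rested largely on 1 transcript. POX_c04726 made up 19.6%, 15.9% and 18.5% of block 1 in the mutant libraries and 71.7%, 75.1% and 69.1% in the PoxKu70 libraries. Without it, an alternative added after the values were seen, block 1 kept 4.89%, with sums of 314 ± 31.6 FPKM in the mutant and 6415 ± 287 FPKM in PoxKu70 (SD, n = 3 each). Leaving out POX_c04719 and POX_c04723 as well, the other 12 genes kept 8.13%, still less than block 2. POX_c04740 made up 95.2%, 93.8% and 92.1% of the gap in the mutant libraries and 77.8%, 74.9% and 60.5% in the PoxKu70 libraries. Without it the gap's sum was lower in the mutant, at 101 ± 1.63 FPKM, than in PoxKu70, at 129 ± 18.3 FPKM (SD, n = 3 each), or 78% of the PoxKu70 level. The rise of the gap as a whole was that of POX_c04740. For scale, the falling run on chromosome VI from POX_f08114 to POX_f08130 kept 17% of its summed PoxKu70 level. This lay between the values of the blocks described here, and the difference was not tested. Its sum also leaned on 1 gene in the mutant, at 122 FPKM of a mean sum of 197 FPKM. The median share kept over its 16 tested genes was 10.7%.

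Single genes showed the same contrast between the blocks. Mean levels in the mutant spanned 1.12 to 126 FPKM in block 1 and 18.9 to 316 FPKM in block 2. In PoxKu70 they spanned 21.7 to 16673 FPKM in block 1 and 52 to 652 FPKM in block 2, and the medians were closer, at 134 and 227 FPKM. The median share kept was 4.73% in block 1, 32.9% in block 2 and 83.9% in the 7 tested genes of the gap. Over all tested genes with a PoxKu70 level above 0 it was 99.4%. The gap's value was that of POX_c04739 and rested on PoxKu70 replicate 2. That library was at 31.8 FPKM and PoxKu70 replicates 1 and 3 at 4.03 and 4.24 FPKM. The mutant libraries were at 11.5, 11.7 and 10.4 FPKM. The log2 change of this gene, also the median of the gap, went the other way, at 0.36 (SE 0.65). No direction of the gap is read from either value. The blocks' shares overlapped in part, since POX_c04718, POX_c04722 and POX_c04728 of block 1 kept shares above those of some genes of block 2.

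**Figure D4:**
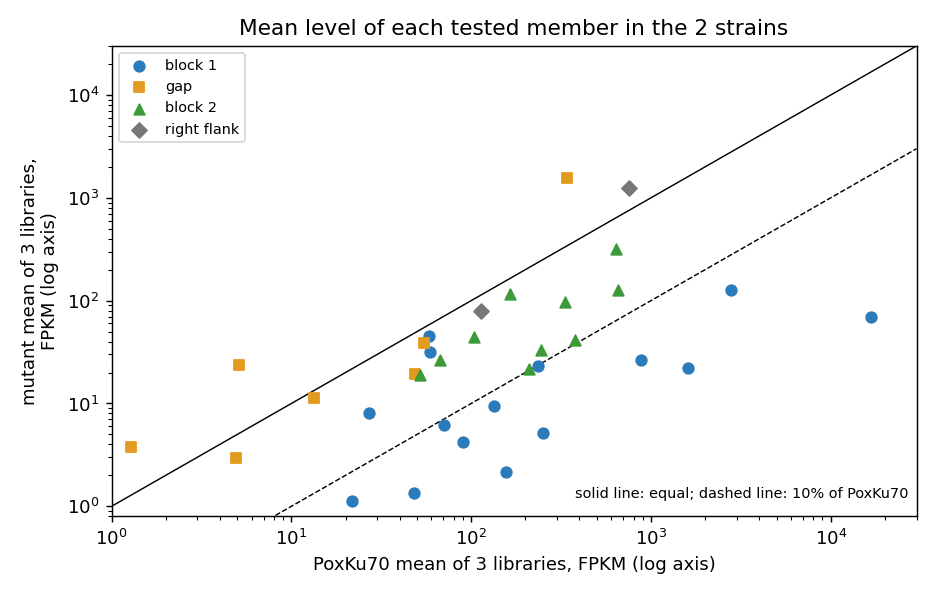
Mean FPKM of the tested members in the mutant (vertical, log axis) against PoxKu70 (horizontal, log axis), by segment; the solid line marks equal levels and the dashed line 10% of the PoxKu70 level. POX_c04716, at a PoxKu70 mean of 0.02 FPKM, lies outside the plot; 11 genes of block 1 lie below the dashed line and 0 of block 2.

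The order of the libraries within a strain does not use the difference between the strains, and is given without a test. In block 2, mutant replicate 2 was the lowest mutant library for 9 of 10 genes, and in block 1 for 10 of 15. Over all 8448 tested genes that library was the lowest for 47.5%. In PoxKu70, replicate 2 was the highest library for 10 of 15 genes of block 1 and for 20 of the 35 tested members, against 29.8% of all tested genes. In block 2, PoxKu70 replicate 2 had no such steady place, being the highest library for 5 of 10 genes and the lowest for 4. Replicates 1 and 3 were the highest there for 3 and 2. PoxKu70 replicate 3 was the lowest library for 6 of 10 genes of block 2, 8 of 15 of block 1 and 21 of the 35 tested members. Over all tested genes it was the lowest for 27.6%. POX_c04731 went against its neighbour. It was at 96.3, 131 and 245 FPKM in PoxKu70 replicates 1 to 3, with replicate 3 the highest, while POX_c04732 was lowest in that library. The median range of log2(FPKM + 1) between the libraries of a strain was 0.47 in block 1, 0.80 in the gap and 0.74 in block 2 in the mutant, and 0.46, 0.66 and 0.47 in PoxKu70, against 0.38 and 0.32 over all tested genes in the mutant and in PoxKu70.

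**Figure D5:**
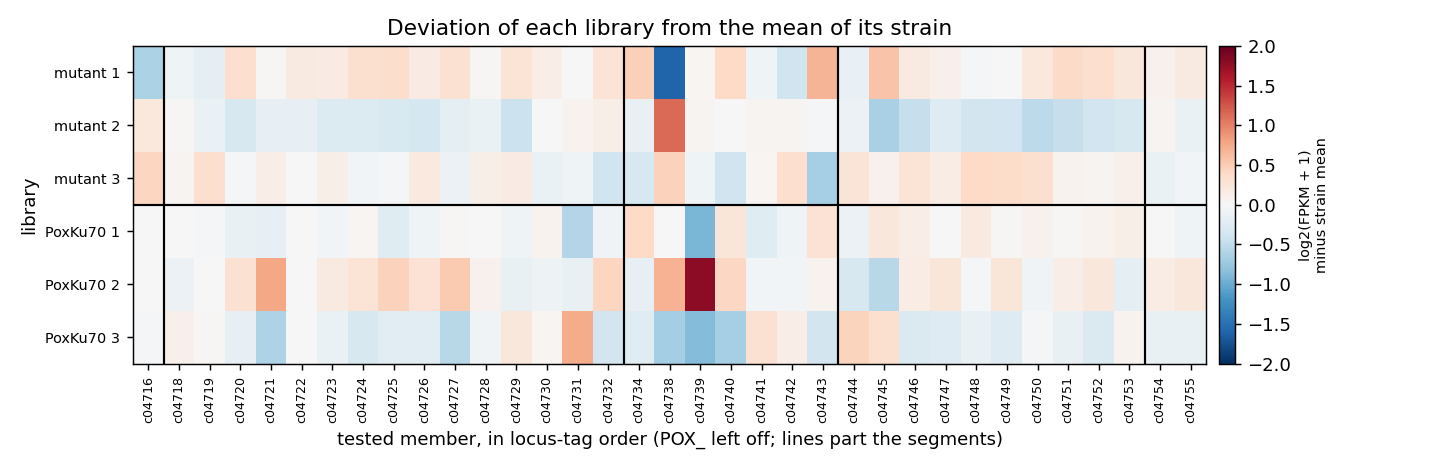
Deviation of each library from the mean of its strain on the log2(FPKM + 1) scale for the 35 tested members, mutant libraries above PoxKu70 libraries; red is above and blue below the strain mean. Mutant replicate 2 is blue across nearly all of block 2, and POX_c04738 in the mutant and POX_c04739 in PoxKu70 vary most.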

How the data were processed

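RNA sequencing of P. oxalicum mycelium, 3 libraries of the POX_a00954 mutant and 3 of PoxKu70, was used. Per the labels' protocols, poly(A) RNA was enriched, fragmented and copied with random primers, and no step that marks the strand is described. HISAT2 and bcl2fastq are named in the submitters' processing notes, without versions. How reads were counted, on which build and with which gene models, is not stated in what was used here. In the deposited files the authors give FPKM for each gene, rounded to 2 decimals. This unit carries the mapped total of its library, so a very abundant transcript lowers all others.

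The members and lists were chosen with earlier results of these data known. The 8448 genes whose 6 libraries averaged 1 FPKM or more were fitted together on the log2(FPKM + 1) scale (limma 3.58.1, R 4.3.3, eBayes with trend, two-sided), genotype being its single term, and called at a Benjamini-Hochberg adjusted p of 0.05. The fit was run on simulated data with normal noise set by the PoxKu70 spread, which does not show how well it calls these libraries. Sums, shares and ratios of means were computed from FPKM without a filter. Values per library are given for the 3 most abundant members of each segment, block edges, and gap or flank members past 1 log2 unit; others so shown were chosen after their values were seen. Relative depth was read as the most frequent ratio to mutant replicate 1, from values between 0.4 and 4 FPKM of genes at 0 in at least 2 libraries. The RefSeq table was used for names and neighbours only, and no sequence was analysed here. Alternatives were pseudocounts of 0.1 and 5, no filter or a minimum of 5 FPKM, 3 scalings (TPM, quantile, median-ratio), robust or untrended eBayes, replicate number as a block, and omission of each library in turn. Python 3.11.15, pandas 2.3.3 and matplotlib 3.10.9 were used.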

Additional observations from a re-analysis of the deposited data

How the results depend on the processing

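Among the members, 528 of 558 log2 changes under alternative settings kept their direction and their side of the threshold; 27 were no longer past it, 1 newly passed (POX_c04739, 1.25 without PoxKu70 replicate 2) and 2 changed sign, both also at POX_c04739 (-0.11 without PoxKu70 replicate 1 and -0.08 without PoxKu70 replicate 3). That gene is the median of the gap, whose median log2 change of 0.36 took the same values in the settings that changed its sign, and lay between -0.11 and 1.02 with any 1 library omitted. With any 1 library omitted, 24 to 27 members were lower and 4 to 6 higher, against 28 and 5, and 3 were higher under quantile normalization. The same omissions gave 4341 to 5119 called genes in all, 2040 to 2579 lower and 2243 to 2540 higher. TPM scaling gave 3912 lower and 1656 higher, lowered the share kept by block 1 to 1.28% and by block 2 to 22.7%, and moved the median log2 change of block 2 to -1.95; it shifts the median of all genes to -0.36 by construction. Block 1 kept 0.912% under quantile normalization and 4.89% without POX_c04726, and its median log2 change was -3.23 with a pseudocount of 5. The gap was at 78% of its PoxKu70 sum without POX_c04740. Leaving out each library gave shares of 1.57% to 1.81% for block 1, 26.8% to 33.2% for block 2 and 309% to 403% for the gap, and medians of -4.27 to -3.97 for block 1 and -1.70 to -1.46 for block 2.

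No pairing by replicate number was seen. Deviations from the strain means correlated at -0.064, -0.0029 and 0.15 between libraries numbered 1, 2 and 3, and for 2 of 6 libraries the best match in the other strain had the same number. With the replicate block 5103 genes were called, 2554 lower and 2549 higher, and 26 members were lower and 5 higher. Depth may limit values under about 1 FPKM. The relative depths estimated here were lower in the mutant libraries. However, mutant replicate 2, at 1.4, lay close to PoxKu70 replicate 3, at 1.5 from 14 genes, and these estimates carry no error.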
